A study of Mus musculus with 6 samples.

Results

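The keratins described here are Krt5, Krt14, Krt15, Krt17, Krt1 and Krt10, the filament proteins that mark the basal and the stratified layers of epidermis. They are 6 of 18193 genes that the array measures, and all probe sets annotated to them were taken. This gave 10 of the 45037 probe sets that are not controls: 1 each for Krt5, Krt15, Krt1 and Krt10, 3 for Krt14, 2 for Krt17, and 1 annotated to Krt17 and Krt14 together, which is kept apart because its signal has no single gene. The arrays measured total RNA of cells sorted from the mouse genital tubercle, the embryonic outgrowth that becomes penis or clitoris, at 12.5 days post coitum. All embryos carried the knock-in allele Shhtm1(EGFP/cre)Cjt, which makes Cre recombinase under the control of the Shh locus, and the reporter allele Gt(ROSA)26Sortm3(CAG-EYFP)Hze, which Cre switches on. They were on a mixed background. The 3 reporter-positive arrays held fluorescent cells, labelled as urethral epithelium. The 3 reporter-negative arrays held the remaining cells of the tubercle, with the same alleles. RNA came from littermates of both sexes, with 3 embryos pooled for replicate 1, 5 for replicate 2 and 2 for replicate 3, in both groups. Where values of 3 arrays are listed, they stand in the order of the replicates 1, 2 and 3. The reporter marks a cell by its history of Cre activity, and the negative fraction is a mixture of cell types. In such mixtures, fewer cells of a type and less RNA per cell cannot be told apart.

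Keratins assemble as obligate pairs of a type I and a type II protein. Krt5 (type II) with Krt14 (type I) forms the filaments of basal keratinocytes, and Krt15 is a further type I keratin of the basal layer. Krt1 (type II) with Krt10 (type I) replaces them in the layers above, once cells begin to differentiate. Krt17 is a type I keratin of periderm, skin appendages and injured epidermis. Simple epithelia use Krt8 with Krt18 and Krt19 instead. Embryonic surface ectoderm is at first such a simple layer and turns to the basal pair when it commits to stratify.

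Transcript signal was unequal between arrays. The median deposited signal of named probe sets was 2.15 to 8.84 in the negative arrays, 4.73 and 3.56 in positive replicates 1 and 2, and 0.34 in positive replicate 3. Control transcripts added at hybridization averaged 1443 to 1884 on all 6. Positive replicate 3 correlated with the other arrays at a Spearman coefficient of 0.303 to 0.317 across probe sets, and the other 5 correlated among themselves at 0.671 to 0.822. The fits were therefore made for all 6 arrays and for the 5 without positive replicate 3. The background level of an array was set as the highest signal among its 27 probe sets for bacterial transcripts that had not been added. This level was 5.36, 8.28 and 2.03 on the negative and 4.47, 4.41 and 1.12 on the positive arrays. Levels are compared between arrays for 1 probe set at a time, since different probe sets bind with different strength.

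Krt15 was the keratin of the basal and stratified group that was higher in the reporter-positive cells, and it passed the test in the 5 arrays but not in all 6. Its probe set (1422667_at) had deposited signals of 34.15, 30.13 and 2.34 on the negative arrays and 101.71, 61.70 and 3.07 on the positive arrays. Positive replicates 1 and 2 lay above every negative array. Positive replicate 3 lay above its own background level but below negative replicates 1 and 2. Within each array, Krt15 ranked at the 78.4, 72.2 and 52.6 percentile of named probe sets in the negative arrays. In the positive ones it ranked at the 95.8, 94.8 and 97.3 percentile, so that by rank the groups did not overlap. On positive replicate 3 only 24.6% of named probe sets exceeded background, so a signal of 3.07 ranked high there. Quantile normalization keeps the ranks within an array, so the separation of normalized values restates this one. After it, positive arrays lay wholly above negative arrays for 5.63% of all probe sets tested, and the groups were apart in either direction for 12.3%.

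**Figure D1:**
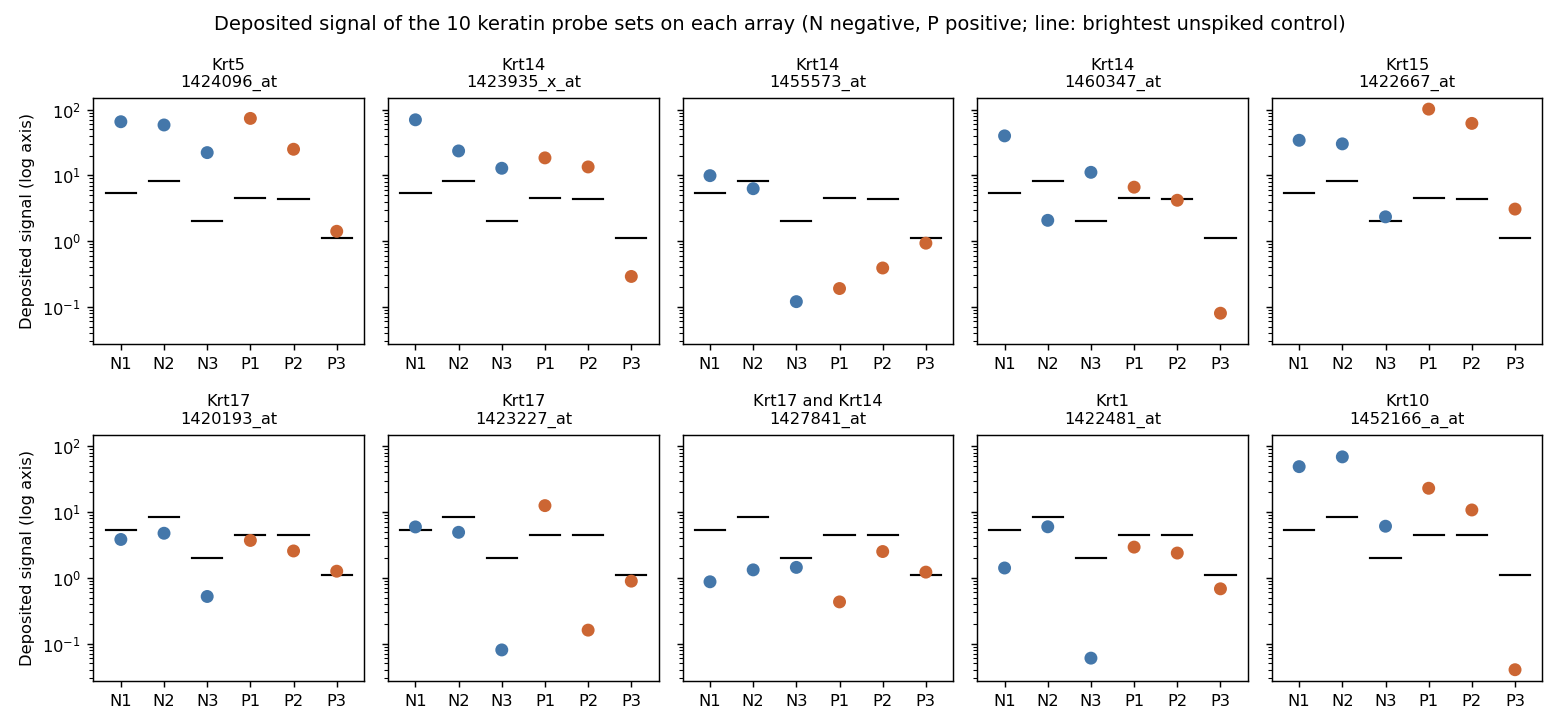
Deposited signal (log axis) of the 10 keratin probe sets on each array. N1 to N3 are negative replicates (blue), P1 to P3 positive replicates (orange), and each short line is the brightest unspiked control of that array. Krt15 and Krt5 lie above the line on 6 of 6 arrays and Krt1 on 0.

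After quantile normalization Krt15 measured 7.13 ± 0.38 (SD, n = 3) on the positive and 4.82 ± 0.40 (SD, n = 3) on the negative arrays, on the log2(signal + 16) scale. The added 16 damps changes of dim probe sets. The size of the Krt15 difference also rests on the normalization. On the same scale, in the 6 arrays, it was 0.68 with values as deposited and 0.87 with median centring. The normalized values were 5.18, 4.89 and 4.39 for negative and 7.04, 6.81 and 7.55 for positive arrays. All 3 positive arrays stood above all 3 negative arrays. Positive replicate 3, at a deposited signal of 3.07, became the highest of the 6 arrays at 7.55. The difference was 2.31 (SE 0.41, 95% interval 1.40 to 3.23). It did not pass an adjusted p of 0.05 over 29373 probe sets (limma, a linear model of each probe set, adjusted p = 0.288), although its unadjusted p of 0.000217 ranked 22 of all tested. Without positive replicate 3 the difference was 2.22 (SE 0.34, 95% interval 1.52 to 2.93, limma adjusted p = 0.00339), ranked 30 of 29416 by p and higher in 2 of 2 positive arrays. The adjusted p over the 17 alternatives of the 6-array fit ran from 1.11e-05, with array weights, to 0.983 (limma). The difference ran from 0.68, with values as deposited, to 3.35, with a pseudocount of 1. Over 16 alternatives of the 5-array fit the adjusted p ran from 7.24e-07 to 0.9999 (limma), and the call was lost with values as deposited (difference 1.46) and with median centring (difference 1.56).

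None of the other keratins passed in either fit. Of the 10 probe sets 9 were bright enough on average to be tested in the 6 arrays, and 0 of these 9 passed an adjusted p of 0.05 (limma), where 0.0136% of all 29373 did. At an unadjusted p under 0.05 the count was 1 of 9, Krt15, against 4.34% of all. Without positive replicate 3, 1 of 7 tested passed, again Krt15, against 0.381% of all 29416 (0.316% higher and 0.0646% lower in positive arrays). It was also the 1 of 7 with an unadjusted p under 0.05, against 7.77% of all. The 9 tested differences had a median of 0.11, with 5 above 0 and 4 below, beside a median of -0.01 over all probe sets. Positive arrays lay wholly above negative arrays for 2 of the 9, Krt15 and 1 probe set of Krt17, and this held for 5.63% of all probe sets. They lay wholly below for 0 of the 9, against 6.67% of all, and the groups were apart in either direction for 2 of the 9 and for 12.3% of all. With 5 arrays the same 2 probe sets of the 7 tested lay wholly above, against 11.8%, and 0 wholly below, against 11.3%, so that 2 of 7 were apart, against 23% of all.

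**Figure D2:**
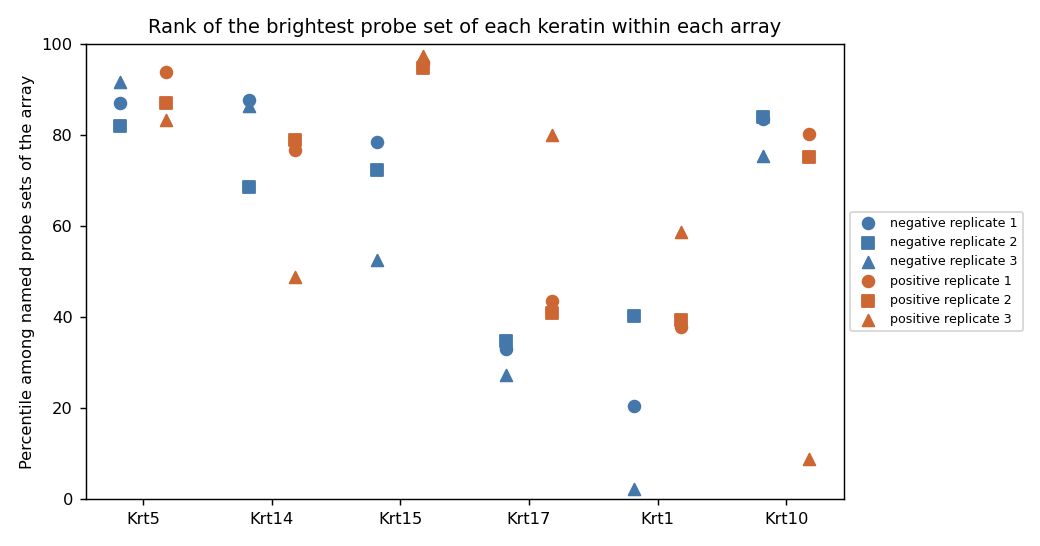
Percentile rank of the brightest probe set of each keratin among the named probe sets of each array (blue negative, orange positive, symbols for replicates 1 to 3). Only for Krt15 and Krt17 among these 6 do the groups separate, with Krt15 at 94.8 or above in positive arrays and at 78.4 or below in negative arrays.

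Krt5, the basal type II keratin, was measured above background on every array and did not differ detectably between the fractions. Its signal (probe set 1424096_at) was 65.43, 58.38 and 22.18 on negative and 73.48, 24.94 and 1.41 on positive arrays. The deposited values overlapped, with positive replicate 1 the brightest of all and positive replicate 3 the dimmest. Normalized, Krt5 measured 5.92 ± 0.63 (SD, n = 3) on positive and 5.81 ± 0.45 (SD, n = 3) on negative arrays. The difference, 0.11, had a 95% interval of -0.90 to 1.12 (limma, adjusted p = 0.950). It was 0.40 without positive replicate 3 (95% interval -0.40 to 1.19, limma adjusted p = 0.858), and it turned to -0.43 with median centring and to -0.62 with values as deposited. These intervals still hold changes of about 1 log2 unit in the 6 arrays, so equality is not shown.

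Krt14, the type I partner of Krt5, had lower means in the reporter-positive arrays on all 3 of its own probe sets, and none passed. The brightest one (1423935_x_at) had signals of 69.98, 23.52 and 12.82 on negative and 18.44, 13.43 and 0.29 on positive arrays. Normalized, this was 4.87 ± 0.49 against 5.43 ± 0.59 (SD, n = 3 each). The groups overlapped, since negative replicate 2 at 4.75 lay below positive replicates 1 and 2 at 5.09 and 5.20. The difference was -0.57 (95% interval -1.49 to 0.35, limma adjusted p = 0.764), and -0.30 without positive replicate 3. The second probe set (1460347_at) read 39.86, 2.07 and 11.12 against 6.61, 4.18 and 0.08, a difference of -0.65 (95% interval -1.52 to 0.21, limma adjusted p = 0.764), and of -0.59 without positive replicate 3 (limma, adjusted p = 0.745). It was above background in negative replicates 1 and 3 and in positive replicate 1, and the SD of 0.80 among negative arrays was larger than the difference between groups. The last one (1455573_at) exceeded background only in negative replicate 1, at 9.90, and differed by -0.04 (95% interval -0.45 to 0.36, limma adjusted p = 0.951). Without positive replicate 3 it was too dim to be tested. By the manufacturer's naming, a probe set ending in x may share probes with other sequences. Krt14, Krt16 and Krt17 are close paralogues, so the brightest Krt14 signal is uncertain in this respect.

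Krt17 was near or below background on most arrays. Its probe set 1420193_at had signals of 3.83, 4.76 and 0.52 on negative and 3.70, 2.56 and 1.26 on positive arrays. Only positive replicate 3 exceeded the control, at 1.26 against 1.12. After normalization the positive arrays all stood above the negative ones, at 4.57 ± 0.51 against 4.17 ± 0.04 (SD, n = 3 each), with positive replicate 3 at 5.15 and the other positive arrays at 4.29 and 4.26. The difference of 0.39 did not pass (95% interval -0.16 to 0.95, limma adjusted p = 0.764), was 0.12 without positive replicate 3 and -0.04 with values as deposited. The other probe set (1423227_at) exceeded background in negative replicate 1 at 5.94 and positive replicate 1 at 12.53, and its difference was 0.28 (95% interval -0.20 to 0.76, limma adjusted p = 0.764), or 0.27 without positive replicate 3 (limma, adjusted p = 0.817). The probe set shared with Krt14 (1427841_at) read 0.43 to 2.51 over the 6 arrays and exceeded background only in positive replicate 3.

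**Figure D3:**
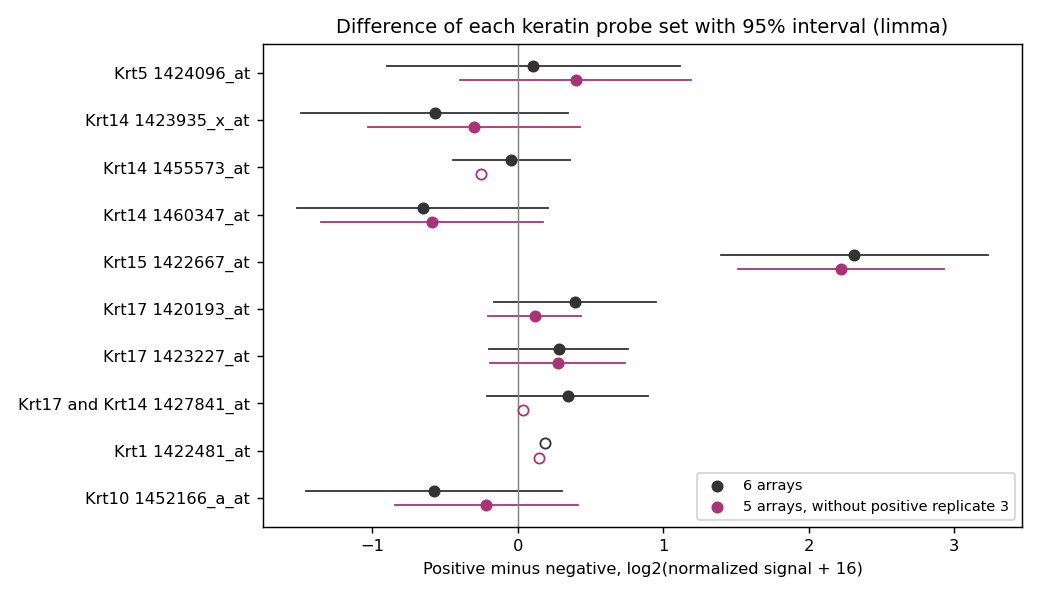
Difference of each keratin probe set between reporter-positive and reporter-negative arrays on the log2(normalized signal + 16) scale, with 95% intervals from limma, for the 6 arrays (dark) and the 5 without positive replicate 3 (purple). Open symbols were too dim to be tested. The intervals of Krt15 lie above 0, at 1.40 to 3.23 and 1.52 to 2.93, and all other intervals include 0.

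The suprabasal pair gave a type I signal without its type II partner. The signal of Krt10 (1452166_a_at) was 49.08, 69.09 and 6.09 on negative and 23.01, 10.76 and 0.04 on positive arrays. It exceeded background on 5 arrays, positive replicate 3 being the exception. Normalized, Krt10 measured 4.77 ± 0.67 against 5.35 ± 0.28 (SD, n = 3 each). The groups overlapped, since positive replicate 1 at 5.28 lay above negative replicate 3 at 5.03. The difference was -0.58 (95% interval -1.46 to 0.30, limma adjusted p = 0.764). Most of it came from positive replicate 3, at 4.02, and without that array it was -0.22 (95% interval -0.85 to 0.42). Krt1 (1422481_at) read 1.41, 5.97 and 0.06 against 2.93, 2.38 and 0.68, below the background control on 6 of 6 arrays. It was too dim to be tested in either fit, and its signal was not detectable with this probe set, which does not show that the transcript is absent.

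After quantile normalization the difference between Krt15 and each other keratin of the group was higher on every positive array than on any negative array. The value compared was Krt15 minus another keratin on the same array, for the brightest probe set of each gene, which shows unequal change and not the relative amount of the transcripts. Krt15 minus Krt5 was -0.59, -0.49 and -1.90 on negative and 0.43, 1.03 and 2.18 on positive arrays, a shift of 2.21. Krt15 minus Krt14 was -0.65, 0.14 and -1.33 against 1.95, 1.61 and 3.25, a shift of 2.88. The shifts against Krt17, Krt1 and Krt10 were 1.92, 2.13 and 2.89. Positive and negative arrays did not overlap in any of these 5 pairs. With values as deposited or median centring, the shifts against Krt17 and Krt1 were 0.72 and 0.71 and the groups overlapped (exact permutation, adjusted p = 0.50), while those against Krt5, Krt14 and Krt10 were 1.30, 1.54 and 1.64 without overlap. Without positive replicate 3 the shifts were 1.83, 2.53, 2.11, 2.07 and 2.44 against Krt5, Krt14, Krt17, Krt1 and Krt10. The exact two-sided permutation test gave p = 0.10 for each, and 0.10 after adjustment over the 5 pairs, which is the smallest p that 3 arrays against 3 allow. All 5 shifts rest on the same Krt15 values and are not independent of each other. Those values already separated the groups after normalization, and Krt15 was set against the others with that known. The pairs therefore restate the difference of Krt15 and give no further support for it. Among keratin partners, Krt14 minus Krt5 shifted by -0.68 and Krt10 minus Krt1 by -0.77, and the arrays of the groups overlapped for both (exact permutation p = 0.20 each, and 0.20 adjusted over 3 partner pairs). Krt15 minus Krt5 was the remaining partner pair, with an adjusted p of 0.20 among them (exact permutation). Krt1 and Krt17 were at or near background, and Krt14 and Krt10 were below it on positive replicate 3, so a difference from them there mainly restates the value of the other keratin.

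**Figure D4:**
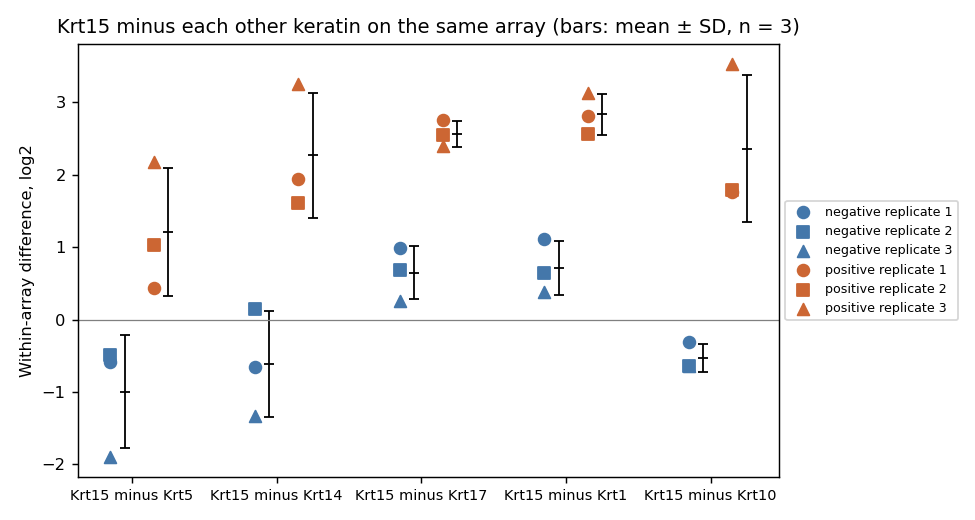
Krt15 minus each of the other 5 keratins on the same array, in log2 units (blue negative, orange positive, symbols for replicates 1 to 3, bars mean ± SD, n = 3). In each pair the positive arrays lie above the negative arrays, by mean shifts of 1.92 to 2.89.

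Krt15 shared its direction with the simple epithelial keratins. Of the simple keratins 4 of 4 tested in the 5 arrays were higher in reporter-positive cells: Krt8 by 4.35, Krt18 by 3.30, Krt19 by 2.95 and Krt7 by 2.66 (limma, adjusted p from 1.56e-05 to 0.000859, where 0.587% of all genes passed in either direction). Krt20 and Krt23, also listed, were too dim to be tested there. The filter took the mean over both groups, so a gene bright in only 1 of them could pass it. On the negative arrays Krt7 and Krt19 were near background, at 1.87 to 8.72 and 1.10 to 7.62. With all 6 arrays 1 of 5 passed, Krt8 (limma, adjusted p = 0.0240), against 0.0142% of genes by their brightest probe set. The list of other stratified keratins had 15 genes, 7 of them tested, and in the 5 arrays 1 of these passed. It was Krt6a, a type II keratin of skin appendages and injured epidermis. Krt6a differed by 1.60 (SE 0.23, limma adjusted p = 0.00226) and read 32.62 and 16.78 in positive replicates 1 and 2, and 0.35 to 1.41 on the negative arrays. Its further probe sets differed by 0.33 and 0.53 and did not pass, and in the 6 arrays Krt6a did not pass either (difference 1.75, limma adjusted p = 0.456). Krt42, second in size in that list, differed by 0.37 and did not pass. Of 24 hair and root sheath keratins 8 were tested in the 5 arrays and 0 passed (limma). At an unadjusted p under 0.05 there was 1, against 7.77% of all probe sets. That one was Krt75, a root sheath keratin, at 1.17 (limma, adjusted p = 0.103). Of the 11 tested in the 6 arrays 0 passed (limma), 0 at an unadjusted p under 0.05, and Krt27 and Krt75 had the largest differences, 0.70 and 0.66.

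Gene order placed Krt15 beside one of these. In the RefSeq table of assembly GRCm38.p6, used for gene order alone, Krt13, Krt15, Krt19, Krt9, Krt14, Krt16, Krt17 and Krt42 follow each other without another protein-coding gene between them, while Krt10 lies in a further stretch of the same type I cluster. Krt15 and its neighbour Krt19 differed by 2.22 and 2.95 in the 5 arrays. On either side of this pair the difference was small, -0.15 for Krt13, -0.30 for Krt14 and 0.09 for Krt16. The probe set of Krt13 exceeded background on 1 array and that of Krt16 on 2, so their small differences say little about these genes. Krt9, which lies between Krt19 and Krt14, is not measured here. On the type II side, Krt6a at 1.60 is the neighbour of Krt5 at 0.40. The stretches examined hold 52 keratin genes. A probe set for that gene alone existed for 47, and 25 were bright enough to test in the 5 arrays. The 6 that passed, all higher in reporter-positive cells, were Krt15, Krt19, Krt7, Krt6a, Krt8 and Krt18, against 0.587% of all genes by their brightest probe set. With positive replicate 3 included 1 of 29 tested passed, against 0.0142% of all genes by their brightest probe set. It was Krt8, already counted among the simple keratins.

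**Figure D5:**
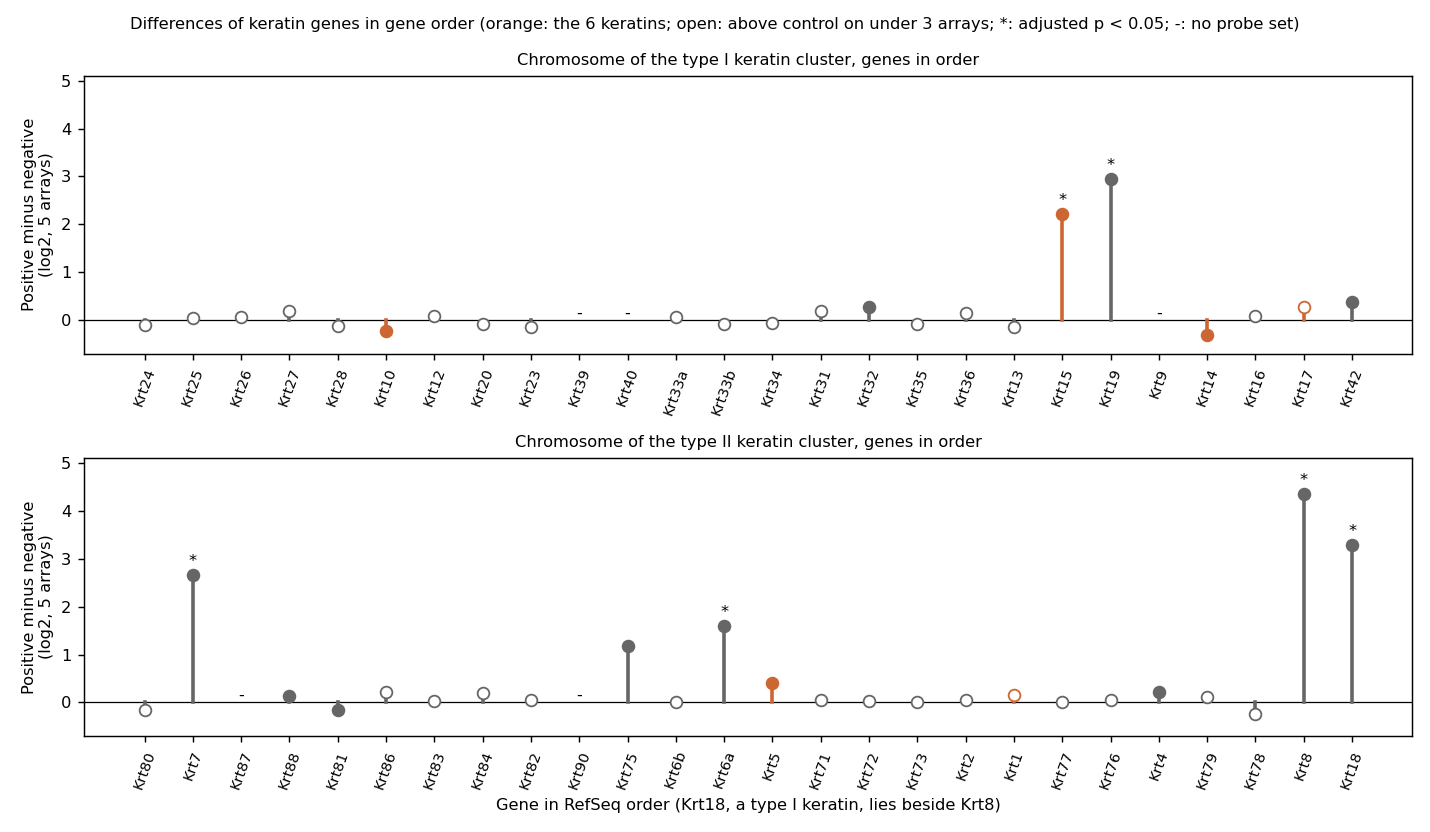
Difference of each keratin gene between reporter-positive and reporter-negative arrays (5 arrays, log2 scale, brightest probe set) in RefSeq gene order, with distances not to scale. Orange marks the 6 keratins described here, open symbols exceeded background on under 3 arrays, and asterisks mark an adjusted p under 0.05. Krt15 and Krt19 stand out side by side at 2.22 and 2.95.

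Other genes of basal keratinocytes were higher in part. Of a list of 21 such genes 18 were tested. In the 6 arrays 16 of the 18 differences were above 0, against 47.2% of all genes. The median was 0.59 beside -0.03 over all genes. Such a count was not particular to this list. Above 0 were also 10 of 11 hair and root sheath keratins and 11 of 14 suprabasal genes, but 0 of 10 mesenchymal markers. With all 6 arrays 0 of 18 passed (limma), and 9 had an unadjusted p under 0.05, against 4.34% of all probe sets. Without positive replicate 3, 5 of 18 were higher and 0 lower, against 0.587% of all genes called in either direction. These were Cd151, a tetraspanin of hemidesmosomes, at 2.36, Perp, a desmosome protein, at 2.03, Dst and Plec, which link keratin filaments to hemidesmosomes, at 1.55 and 1.44, and Sfn, a 14-3-3 protein of keratinocytes, at 1.22 (limma, adjusted p from 0.0146 to 0.0497). In the same fit a further probe set passed for Cd151, at 2.53, and for Dst, at 1.23, while the others of these genes did not, among them Dst at 0.55 and Plec at 0.20 and 0.26. With all 6 arrays the differences of the 5 genes ran from 0.73 for Plec to 2.41 for Cd151. Trp63, the transcription factor of basal epithelial identity, differed by 1.70 and did not pass (limma, adjusted p = 0.0734), and its 3 dimmer probe sets differed by 0.04 to 0.14. Dsc3, a desmosomal cadherin of stratified epithelia, differed by -1.44 and did not pass (limma, adjusted p = 0.234). Other hemidesmosome genes of the list did not pass in the 5 arrays, Itga6 at 0.67 and Col17a1 at 0.02 (limma, adjusted p = 0.723 and 0.992). Itgb4 was too dim to be tested there. Trp63, Dsc3, Itga6, Col17a1 and Itgb4 were singled out after their values were seen.

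Genes of suprabasal differentiation and the cornified envelope were mostly dim. Of 28 listed 26 had a probe set, and 8 of these exceeded background on 3 or more arrays. Without positive replicate 3, 16 were tested and 1 passed, Grhl3, a transcription factor of epidermal barrier formation, at 1.92 (SE 0.26, limma adjusted p = 0.00153), against 0.587% of all genes. Grhl3 was at 1.15 and did not pass in the 6 arrays. Lor, a main protein of the cornified envelope, differed by 0.98 in the 6 arrays and by 0.16 in the 5, and passed in neither. Over all 6 arrays 0 of 14 passed (limma), and 3 had an unadjusted p under 0.05, against 4.34% of all probe sets. In these 14, 11 differences were above 0, against 47.2% of all genes, with a median of 0.34 beside -0.03. In the 5 arrays 13 of 16 were above 0, against 49.6% of all genes, with a median of 0.14. An unadjusted p under 0.05 was found there for 6 of 16 in either direction (limma), against 7.77% of all probe sets.

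Markers of other cell types differed between the same arrays. The epithelial markers Epcam, Cdh1, Cldn6, Cldn7, Esrp1 and Dsp were all higher without positive replicate 3, by 1.81 to 2.85 (limma, 6 of 6). Cldn6 and Cldn7 were below background on every negative array and passed the filter through the positive arrays, so their calls add little. In the 6 arrays 0 of 6 passed (limma), with 6 at an unadjusted p under 0.05. For these and the marker counts below, 0.587% of all genes passed in the 5 arrays and 0.0142% in the 6. An unadjusted p under 0.05 was found for 7.77% of all probe sets in the 5 arrays and 4.34% in the 6. Their summed normalized signal was 397 to 945 on positive and 28.3 to 77.8 on negative arrays. Krt15 is also a gene of epithelium, and the share of epithelial cells in each fraction was not measured. The 10 mesenchymal markers summed to 2265 to 2999 on negative arrays, and to 2347, 176 and 416 on positive ones, so that positive replicate 1 fell within the negative range. As deposited, Krt15 and Krt5 were also brightest in that array. On the normalized scale, which the sums use, Krt5 was still brightest there, at 6.61. Normalized Krt15, at 7.04, lay below positive replicate 3, at 7.55. None of the 10 passed in either fit (limma, 6 of 10 at an unadjusted p under 0.05 in the 6 arrays and 7 of 10 in the 5), and Col3a1 and Col1a2 differed most in the 5 arrays, at -2.18 and -1.93. Erythroid markers summed to 3124 to 5998 on negative and 627 to 1495 on positive arrays. The 5 measured, Hbb-bh1, Hba-x, Hbb-y, Alas2 and Slc4a1, were lower without positive replicate 3, by -4.26 to -1.44 (limma, 5 of 5). Slc4a1 was below background on every positive array and passed the filter through the negative arrays. Leukocyte markers summed to 17.6 to 42.3 on negative and 64.4 to 156 on positive arrays, and 2 of 8, Csf1r and C1qb, were higher without positive replicate 3, at 2.07 and 1.46 (limma). In the 6 arrays 0 of 5 erythroid and 0 of 6 leukocyte markers tested passed (limma), with 5 and 3 at an unadjusted p under 0.05. Endothelial markers, with Kdr and Esam at 0.38 and 0.34, and neural crest markers, with Erbb3 and Dct at 0.89 and 0.36, had 0 called in either fit (limma, with 0 and 1 at an unadjusted p under 0.05 in the 5 arrays). The part of these cell types in the keratin values was not tested.

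The genes whose pattern was most like that of Krt15 across arrays included epithelial ones. Over the 6 arrays these were Rab25, an epithelial trafficking GTPase, Ezr, the membrane linker ezrin, and Sema3c, a secreted semaphorin, with Pearson r of 0.980, 0.971 and 0.969 among 4797 genes that varied. Over the 5 arrays they were Mbnl1, Sfn and Man1a, at 0.999, 0.994 and 0.990 among 1681 genes. For Krt5 the most like genes were Zfp148, Jak1 and Pex14 (0.961, 0.961 and 0.927) over the 6 arrays and Flna, Ankrd11 and Tes (0.977, 0.963 and 0.954) over the 5. For Krt14 they were Marchf6, Synpo2 and Prkce (0.929, 0.909 and 0.903), then Meg3, Gpx1 and Fech (0.937, 0.909 and 0.865). For Krt10 they were Stx18, Csnk1g3 and Suz12 (0.999, 0.998 and 0.997), then Prdm16, Elovl4 and Golm2 (0.9996, 0.999 and 0.996). No keratin had a gene in common between the 6-array and the 5-array choice. These values are descriptions over 6 or 5 arrays that share the same spread in signal, chosen as the highest of many, and Krt17 and Krt1 were too dim for the comparison.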

How the data were processed

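The authors deposited 1 intensity per probe set and array, per the labels from biotin-labelled total RNA on Affymetrix arrays. The submitters' processing notes name GCOS, for 1 sample. How probes were summarized and scaled, and with which build, is not given in the sources used here. The deposited intensity values were never negative and unequal in median, so they were read as linear and not scaled to a common level. From 45101 probe sets 64 controls were set aside. The rest were quantile normalized, transformed to log2(signal + 16), and tested where their mean exceeded the 30th percentile of named probe sets. Each probe set was compared between groups in limma 3.58.1 under R 4.3.3 (lmFit, then eBayes, its prior variance following a trend in intensity). P-values were adjusted by Benjamini and Hochberg over all tested, with a threshold of 0.05. Gene lists used the brightest probe set of each gene. Symbols of 34741 of 34945 probe sets with 1 gene were updated by gene identifier. The 5-array fit repeats every step without positive replicate 3. The steps were checked on simulated data.

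The members, lists and the 5-array fit were chosen with earlier results of these data known. All member probe sets were named. From each list, members past the threshold in either fit were named, at most 6, and where fewer than 2 passed, the 2 with the largest difference. Genes most like a member were the 3 with the highest Pearson r among tested genes with an SD of at least 0.5, for members above background on at least 3 arrays. Alternatives were other scalings, pseudocounts, filters, gene summaries, variance models, a block for pool size and leaving out each array. Each array is 1 pool and fraction, so p-values measure the spread between arrays. Both fractions of a replicate have the same pool size and adjacent numbers in the sample titles. The labels do not say whether they share pools, and the main fits ignore any such pairing. The number of arrays limits the precision.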

Additional observations from a re-analysis of the deposited data

How the results depend on the processing

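Calls over all probe sets depended on the fit. In the 6 arrays the 4 calls became 0 with values as deposited, a pseudocount of 64, the mean of the probe sets of a gene, no intensity trend or the pool size as a replicate block, 2 with 1 probe set per gene, 9 with a pseudocount of 1 or no filter, 41 with median centring (40 higher, 1 lower), 757 with array weights, and 0 to 112 when each array was left out. The split of 4 higher and 0 lower became 8 and 1 with a pseudocount of 1, 5 and 4 with no filter, 387 and 370 with array weights, and 1 and 4 without negative or without positive replicate 2. In the 5 arrays the 112 calls (93 higher, 19 lower) became 0 with values as deposited, 74 with median centring (69 and 5), 52 with a pseudocount of 1, 30 with no filter, 27 with the mean of probe sets, 23 with no trend, 438 with array weights (272 and 166), 953 with the replicate block (453 and 500), and 42 to 382 when 1 more array was left out. With 1 positive array left, that array is assumed to vary like the others.

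Keratin calls were 0 in the 6 arrays and 1, Krt15, with array weights or without positive replicate 3 (0 to 1 over arrays left out). In the 5 arrays the 1 call became 0 with values as deposited or median centring, where Krt15 differed by 1.46 and 1.56, and stayed at 1 to 1 with each further array left out. Krt5 turned to -0.62 with values as deposited and -0.43 with median centring, and ranged from -0.24 to 0.40 over arrays left out. In the 5 arrays it was -0.020 as deposited, and -0.039 to 0.85 over arrays left out. Krt14 (1455573_at) ranged from -0.17 to 0.052 over arrays left out, and Krt17 (1420193_at) was -0.036 as deposited. In the 6 arrays the median of all probe sets moved to -0.35 as deposited, -0.16 with median centring and -0.13 with a pseudocount of 1. Relative to that median, Krt5 was at -0.27, -0.27 and 0.26, Krt17 (1420193_at) at 0.31, 0.31 and 1.41, and Krt15 at 1.03, 1.03 and 3.48. No within-array pair changed direction over its 11 alternatives, but Krt15 minus Krt17 and minus Krt1 fell to 0.72 and 0.71 and lost their separation as deposited and with median centring. The cause of these changes was not tested.

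Deviations from the group mean correlated at 0.12, 0.03 and 0.10 between arrays of equal pool size. Every array correlated best with its own number except negative replicate 2, at 0.07 with positive replicate 1. These values do not settle whether arrays of equal number are pairs. The main fits took no pairing, and the block is given as an alternative. With the replicate block Krt15 differed by 2.31 (limma, adjusted p = 0.718) in the 6 arrays and 1.98 (limma, adjusted p = 7.24e-07) in the 5, where negative replicate 3 has no partner. An array with a median signal of 0.34 limits what its keratin values can show.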
